A study of Drosophila melanogaster with 12 samples.

Results

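The comparison described here is that of 3 poly(A) RNA libraries from S2 cells treated with 50 µmol/L TMPyP4 with 3 libraries from S2 cells given the drug solvent DMSO, 6 of the 12 libraries in the series. Members were taken by their labelled concentration. S2 is a Drosophila melanogaster line of embryonic origin with blood cell (hemocyte) features, and all libraries came from this line, grown in TNM-FH insect medium and collected 48 hours after treatment. The other 6 libraries, 3 each at 25 and 100 µmol/L, entered the fit and 1 direct comparison each. The labels do not say whether replicates were separate cultures, so p-values measure the spread between these libraries, which may be technical. They give a value of 100 µg/L for the DMSO group, a figure that is not read here as the DMSO dose. They also describe the RNA as prepared together with zebrafish RNA, and how zebrafish reads were set aside is not given in the sources used here.

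TMPyP4 is a cationic porphyrin that stacks on G-quadruplexes, the folds that guanine-rich DNA or RNA can take up. Quadruplexes occur in promoters, telomere repeats, introns and transcripts, and dedicated helicases unwind them. Like other porphyrins, TMPyP4 can bind metals and form reactive oxygen species in light, and cells meet such species with glutathione transferases, peroxiredoxins and heat shock proteins. Fly telomeres are kept by retrotransposons rather than telomerase, so a fly line lacks the telomerase target for which the compound is best known in human cells.

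The 50 µmol/L libraries held 6125645, 4669194 and 5627959 gene counts in replicates 1, 2 and 3, against 8559765, 7711896 and 9241109 in the DMSO libraries. Of 17494 genes, 7328 had enough counts to be tested. Levels are given as CPM, counts scaled to the size of each library with TMM factors, which do not correct for gene length. Fold changes compare group levels on the log2 scale, SE is their standard error, and adjusted p-values are corrected over all genes tested. The cells were checked against 13 hemocyte markers, of which 11 were tested. Their summed level was 1822, 1190 and 1761 CPM at 50 µmol/L and 2554, 2213 and 2326 CPM in DMSO. NimC1 had no count in any of the 6 libraries. In bulk libraries fewer cells of a kind and less RNA per cell cannot be told apart. Neuron markers summed to 0.643 to 1.28 CPM at 50 µmol/L and 0.654 to 2.52 CPM in DMSO, and 4 of 5 fat body markers were at 0 throughout. Replicate 1 at 50 µmol/L stood nearer to DMSO than its fellows. Its Spearman correlation across genes was 0.990 with DMSO replicate 2, whereas the 3 pairs of 50 µmol/L libraries gave 0.979 to 0.988.

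Of the 7328 genes, 502 (6.85%) passed the threshold, an edgeR adjusted p under 0.05, and 378 (5.16%) of all tested fell while 124 (1.69%) rose. The falls were the larger changes. The median log2 fold change was -1.0 among genes that fell and 0.52 among genes that rose, against 0.02 over all genes tested. Of the genes that rose, 15 did so by at least 2-fold, whereas 193 genes fell by that much, 208 (2.84%) together. In 478 of the 502 the 3 libraries of each group did not overlap, and such separation was seen in 1886 (25.7%) of all genes tested.

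**Figure D1:**
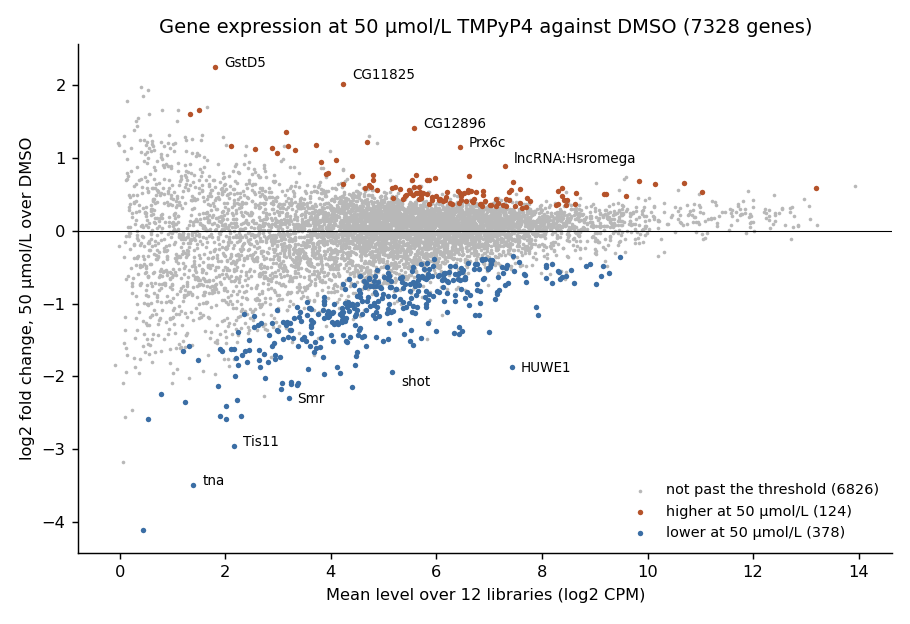
Log2 fold change at 50 µmol/L TMPyP4 over DMSO against the mean level over 12 libraries (log2 CPM), with 1 point per gene for the 7328 genes tested. Points in colour passed an edgeR adjusted p under 0.05; the 378 lower genes reach further from 0 than the 124 higher genes.

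By size of fold, GstD5, a glutathione transferase, and CG11825, a gene in a cluster with peroxiredoxins, led the genes that rose. CG11825, a fly member of a family of small mitochondrial proteins induced by low oxygen, had 22.5, 29.2 and 16.1 CPM at 50 µmol/L and 6.9, 4.45 and 5.25 CPM in DMSO. Its groups did not overlap, as naming by size of fold required. The log2 fold change was 2.01 (SE 0.27, edgeR adjusted p 0.00334). The gene lies on chromosome 2R at 10420414 to 10423650 (minus strand, dm6), between members of the peroxiredoxin 6 family, enzymes that reduce peroxides.

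Within the same 9198 bases, from 10418718 to 10427915, lie Prx6c, CG11825, CG33474, Prx6b and CG12896. The stretch was picked after its values were seen. Prx6c had 96.2, 89.7 and 73.7 CPM at 50 µmol/L against 38.7, 38.1 and 40.3 CPM in DMSO, and its log2 fold change was 1.15 (SE 0.20, edgeR adjusted p 0.00592). CG12896 had 51.0, 65.0 and 30.0 CPM at 50 µmol/L and 17.0, 16.7 and 20.5 CPM in DMSO, and its log2 fold change was 1.42 (SE 0.28, edgeR adjusted p 0.012). In both genes every treated library lay above every DMSO library. The call of CG12896 was lost without 50 µmol/L replicate 2 or without DMSO replicate 1, and its log2 fold change over the 6 omissions ran between 1.16 and 1.67. Prx6b was much lower, at 4.98, 6.33 and 5.49 CPM at 50 µmol/L against 2.96, 2.62 and 1.89 CPM in DMSO, and it did not pass (log2 fold change 1.16, SE 0.39, edgeR adjusted p 0.0780). CG33474 was too low to test. These peroxiredoxin genes are close relatives, and how reads that match several copies were assigned is not given, so the split between them is uncertain.

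GstD5, a delta-class transferase that joins glutathione to reactive compounds, had 5.31, 6.58 and 6.77 CPM at 50 µmol/L and 2.19, 0.916 and 0.735 CPM in DMSO. At 2.25 (SE 0.42, edgeR adjusted p 0.00816), its log2 fold change was the largest among the genes that rose, at a low level of expression. CG12795, a gene of undescribed function here, had 66.3, 87.0 and 66.6 CPM at 50 µmol/L against 43.2, 46.3 and 43.5 CPM in DMSO (log2 fold change 0.72, SE 0.12, edgeR adjusted p 0.00564). The noncoding RNA roX2, which guides the dosage compensation complex to the male X chromosome, had 177, 239 and 198 CPM at 50 µmol/L and 130, 130 and 124 CPM in DMSO (log2 fold change 0.67, SE 0.12, edgeR adjusted p 0.00687). In all of these genes the groups were separate, which naming by largest rise or smallest p required. These last 3 genes, CG11825 and Prx6c were the 5 of the 124 rising genes whose call held in every one of the 6 fits with 1 library left out.

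The other genes among the 12 with the largest rises (groups separate, average log2 CPM of 1 or more) were GstE9, snoRNA:185, CG6220, CG17715, RNaseMRP:RNA, asRNA:CR43481, Uhg8 and lncRNA:CR45820, with log2 fold changes between 1.13 and 1.66. Several are noncoding or low. RNaseMRP:RNA, the RNA of the enzyme that cuts ribosomal RNA precursors, had 10.8, 24.8 and 16.5 CPM at 50 µmol/L and 5.04, 9.16 and 8.61 CPM in DMSO. Uhg8, a host transcript of small nucleolar RNAs, had 9.01, 10.96 and 8.23 CPM at 50 µmol/L against 4.60, 4.58 and 3.36 CPM in DMSO. Each of these 8 calls was lost in at least 4 of the 6 fits that omit a library, and in all 8 without 50 µmol/L replicate 2, 50 µmol/L replicate 3 or DMSO replicate 1. Over all genes, the same 3 omissions left 50, 51 and 65 calls, whereas omitting 50 µmol/L replicate 1 gave 1233, DMSO replicate 2 gave 762 and DMSO replicate 3 gave 222.

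**Figure D2:**
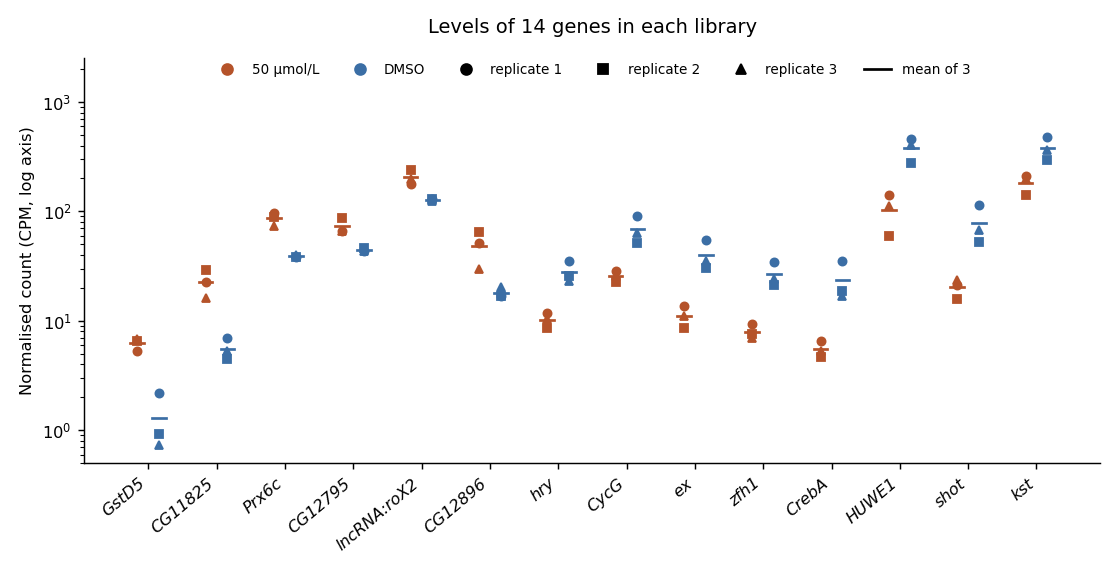
Normalised counts (CPM, log axis) of 14 genes in the 3 libraries at 50 µmol/L TMPyP4 and the 3 DMSO libraries, with marker shape for the replicate and a line for the mean of 3. In each gene the groups are separate. Naming by size of fold or by smallest p among all called genes required this, but hry, CycG, ex, CrebA and kst were named in other ways. DMSO replicate 1 is the highest library in each of the 8 genes that fell.

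Among the genes that fell, those with the smallest p were large regulatory and structural genes. shot, the spectraplakin that ties actin to microtubules, had 21.1, 15.8 and 23.8 CPM at 50 µmol/L against 114.5, 52.99 and 67.0 CPM in DMSO. The log2 fold change was -1.94 (SE 0.27, edgeR adjusted p 0.00334). HUWE1, a giant ubiquitin ligase, had 140, 59.7 and 111 CPM at 50 µmol/L and 462, 276 and 408 CPM in DMSO (log2 fold change -1.87, SE 0.26, edgeR adjusted p 0.00334). In both, the highest treated library was below the lowest DMSO library, which naming by smallest p required. zfh1, a zinc finger and homeodomain transcription factor, had 9.33, 7.55 and 6.95 CPM at 50 µmol/L against 34.3, 21.2 and 24.1 CPM in DMSO (log2 fold change -1.73, SE 0.24, edgeR adjusted p 0.00334). Bruce, a very large ubiquitin-conjugating inhibitor of apoptosis, had 90.2, 67.7 and 71.0 CPM at 50 µmol/L and 186, 129 and 149 CPM in DMSO (log2 fold change -1.01, SE 0.15, edgeR adjusted p 0.00432).

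The 12 largest falls among genes with separate groups and an average log2 CPM of 1 or more were those of tna, Tis11, Ncoa6, CG4393, Mur89F, Cph, CG14073, CG4294, Smr, AGO1, Prosap and mbl, with log2 fold changes between -3.49 and -2.14. tna, a SUMO ligase of the trithorax group, had 1.13, 0 and 0.366 CPM at 50 µmol/L and 12.4, 4.06 and 2.73 CPM in DMSO. Tis11, which binds AU-rich elements and marks transcripts for decay, had 1.45, 1.71 and 0.732 CPM at 50 µmol/L against 17.3, 6.80 and 5.78 CPM in DMSO. Smr, a nuclear receptor corepressor, had 6.59, 2.44 and 3.11 CPM at 50 µmol/L and 29.8, 14.9 and 16.7 CPM in DMSO. DMSO replicate 1 was the highest library for these 3 genes. Of the 12, the call of Smr held in all 6 omissions (log2 fold change -2.86 to -1.92). The other 11 calls were lost without 50 µmol/L replicate 2, 50 µmol/L replicate 3 or DMSO replicate 1, and that of CG14073 also without DMSO replicate 3. For tna the log2 fold change over the omissions lay between -4.84 and -2.57, and for Tis11 between -3.23 and -2.29.

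In all, 37 genes (0.505% of those tested) were called in each of the 6 fits that omit a library, 5 higher and 32 lower. They were listed after the values were seen. The 32 include the transcription factors and corepressors zfh1, hry, CrebA, aop, Smr and spen, and the chromatin factors kis, E(bx), tou and Tet. They also include the cell surface and guidance genes Ten-m, Dscam1, LRP1 and sli, and the cytoskeletal genes shot, kst, Zasp52, zormin, unc-104 and RhoGAP19D. The kinases Lk6 and Hipk, the cyclin CycG, the ubiquitin enzymes HUWE1 and Bruce, the germ granule scaffold tud and the deadenylase scaffold Not1 were among them as well. CG13185, l(3)L1231, CG11122, mask and the Hippo pathway gene ex complete the list. CrebA, which drives genes of the secretory pathway, had 6.59, 4.63 and 5.30 CPM at 50 µmol/L against 35.3, 18.7 and 17.0 CPM in DMSO (log2 fold change -2.09, SE 0.37, edgeR adjusted p 0.00675). unc-104, a kinesin of synaptic vesicle transport, had 3.38, 3.65 and 2.93 CPM at 50 µmol/L and 15.0, 7.98 and 9.35 CPM in DMSO (log2 fold change -1.70, SE 0.30, edgeR adjusted p 0.00687).

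Gene length moved with these changes. Across the 7263 genes with a known exonic length, the Spearman correlation of log2 fold change with exonic length was -0.640, as a description across genes that share the same 6 libraries. Correlation with the mean level was 0.179. In the shortest of 5 equal bins of genes 67 rose and 1 fell, with a median log2 fold change of 0.23. In the longest bin 2 rose and 316 fell, with a median of -0.49. Each library was also given a slope, the change of log2 CPM (centred per gene over the 6 libraries) per doubling of exonic length. It was -0.00628, -0.249 and -0.135 at 50 µmol/L and 0.237, 0.0271 and 0.126 in DMSO. The ranges did not overlap, and the difference of -0.26 had an exact two-sided permutation p of 0.1, the smallest that 3 against 3 libraries allow. Replicate 1 at 50 µmol/L and DMSO replicate 2 lay nearest each other in slope. The part of length in any single change was not tested.

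A refit that removed each library's own trend on exonic length (a length offset) called 88 genes (1.2%), 49 higher (0.669%) and 39 lower (0.532%). Of the 502 genes, 59 were called there in the same direction, 21 higher and 38 lower, and of the 37 that held in every omission, 20 were. The share of calls that were rises was 24.7% without the offset and 55.7% with it. The 5 rises with the smallest p there were trio, lncRNA:Hsromega, lola, CG11825 and mod(mdg4), and 3 of them were not called without the offset. trio, with 11281 exonic bases, was at 0.81 with the offset (edgeR adjusted p 0.00148) and -0.02 without it. lola and mod(mdg4), BTB-domain transcription factors with many isoforms, were at 1.00 (edgeR adjusted p 0.0031) and 1.04 (edgeR adjusted p 0.0072) with the offset and -0.23 and 0.16 without it. CG11825 (1.84, edgeR adjusted p 0.0072) and lncRNA:Hsromega (2.13, edgeR adjusted p 0.00191) were called in both fits. The 5 falls with the smallest p were also called in both fits, namely hry (-1.43, edgeR adjusted p 0.0072), zfh1 (-1.17, edgeR adjusted p 0.0144), CycG (-0.91, edgeR adjusted p 0.0208), ex (-1.29, edgeR adjusted p 0.0217) and RhoGAP19D (-1.14, edgeR adjusted p 0.0219). shot, at -0.54, did not pass with the offset (edgeR adjusted p 0.127).

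hry, the bHLH repressor hairy of segmentation and Notch responses, is of middling exonic length, 2335 bases, and its log2 fold change was -1.44 without the offset. It had 11.7, 8.53 and 10.4 CPM at 50 µmol/L against 34.97, 25.8 and 23.0 CPM in DMSO. CycG, a cyclin tied to growth and genome stability, had 28.8, 22.4 and 25.6 CPM at 50 µmol/L and 90.8, 51.5 and 63.9 CPM in DMSO. Neither gene's groups overlapped. Some genes ran against the trend and were picked for that. lncRNA:Hsromega, a heat-inducible RNA that organises nuclear speckles, is 21710 bases long by its exons and rose, with 199, 265 and 146 CPM at 50 µmol/L against 140, 106 and 82.1 CPM in DMSO (log2 fold change 0.89, SE 0.20, edgeR adjusted p 0.0165). Its groups were separate by a narrow margin, and its call was lost without 50 µmol/L replicate 2 and without DMSO replicate 3 (0.65 to 1.11 over the omissions). CG17715 was the other long gene that rose. The short genes that fell were CHKov1, with 7.72, 5.85 and 7.32 CPM at 50 µmol/L and 15.8, 17.8 and 12.0 CPM in DMSO, and CG10041, with 1, 0 and 0 counts at 50 µmol/L and 7, 18 and 10 counts in DMSO.

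**Figure D3:**
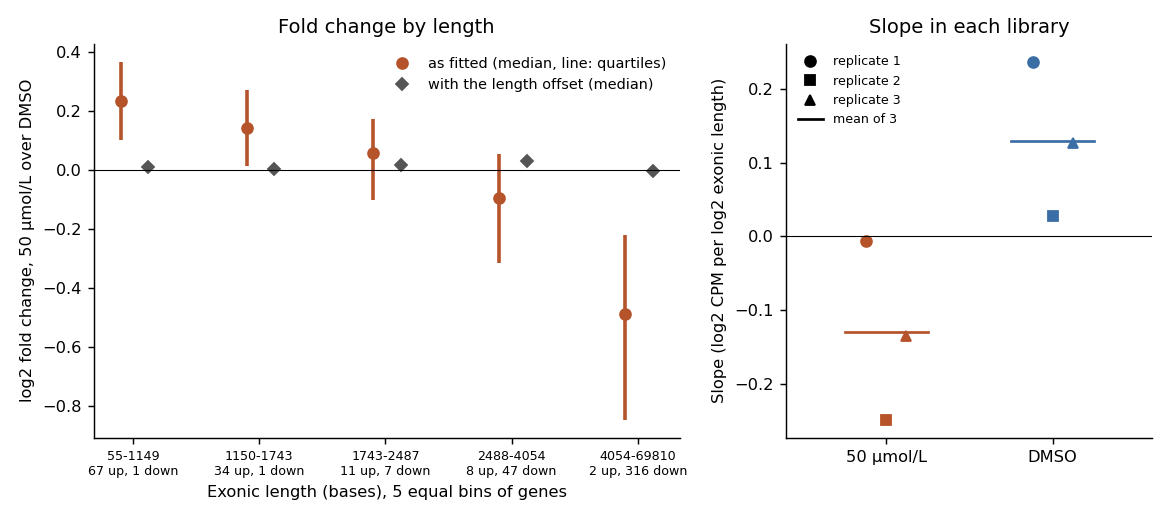
Left, median log2 fold change at 50 µmol/L over DMSO in 5 equal bins of exonic length, as fitted (line, quartiles) and with the length offset; right, change of log2 CPM per doubling of exonic length in each of the 6 libraries with the mean of 3. The median is 0.23 in the shortest bin and -0.49 in the longest, and the 3 slopes at 50 µmol/L lie below the 3 DMSO slopes.

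The titles of the libraries begin with numbers whose meaning the labels do not state. By those numbers 50 µmol/L replicate 1 falls in a run with DMSO replicate 2, and 50 µmol/L replicate 3 in a run with DMSO replicate 1. Deviations from the group mean correlated at -0.315 and -0.205 within these pairs. The run of 50 µmol/L replicate 2 holds no DMSO library, and that of DMSO replicate 3 no 50 µmol/L library. With the run as a block in the fit no gene passed, with a smallest edgeR adjusted p of 0.0508 and 1141 genes at an unadjusted p under 0.05, against 1918 without the block. For shot the differences in log2 CPM within the pairs were -1.32 and -2.25, for hry -1.12 and -1.72, for CG11825 2.27 and 1.19 and for Prx6c 1.33 and 0.93.

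Gene lists are described by counts and medians. Over all genes tested the median was 0.02, 6.85% were called, 1.69% rose and 5.16% fell, and a list whose share is near these gives no result about its members. Helicases that unwind quadruplexes and telomere capping genes come first. None of 10 tested helicases passed, and their median of -0.11 lay between -0.28 and -0.0045 with a library left out. mle, the helicase of the dosage compensation complex, had 47.9, 33.6 and 41.5 CPM at 50 µmol/L and 57.3, 45.5 and 56.0 CPM in DMSO (log2 fold change -0.36, SE 0.14, edgeR adjusted p 0.1097), and the groups overlapped. Of 9 telomere capping genes (median -0.05) 1 (11.1%) fell, rad50, which joins and signals DNA breaks, at 15.6, 15.3 and 11.9 CPM at 50 µmol/L against 27.9, 20.3 and 22.9 CPM in DMSO (log2 fold change -0.73, edgeR adjusted p 0.0258). That call was lost without 50 µmol/L replicate 2 or 3 and without DMSO replicate 1 or 3. In 6 of the 9 the libraries of the groups did not overlap, against 25.7% of all genes. Of the 9, 4 had a positive and 5 a negative log2 fold change, and rad50 and tefu (-0.56) were lower with separate groups. The list summed to 1289, 1407 and 1258 CPM at 50 µmol/L and 1185, 1142 and 1095 CPM in DMSO. The sums did not overlap, and the only call was the fall of rad50. HipHop, a subunit of the telomere cap, had a log2 fold change of 0.31 (edgeR adjusted p 0.0594). In the DNA damage and p53 response rad50 was the only call among 22 genes (median 0.01), and p53 itself had a log2 fold change of 0.02 (SE 0.15). No call was made among 36 DNA replication genes (median 0.12), 29 cell cycle and mitosis genes (median -0.08) or 10 genes of the apoptosis core (median 0.05). stg, the Cdc25 phosphatase that starts mitosis, was at -1.23 without passing (edgeR adjusted p 0.0553).

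Heat shock genes were mostly higher at 50 µmol/L but seldom past the threshold. Of 16 tested, 15 had a positive log2 fold change, the median was 0.52 (0.44 with the length offset) and 1 (6.25%) rose, Hsp83, the fly Hsp90 chaperone. The list summed to 26220, 30230 and 24610 CPM at 50 µmol/L and 22480, 19830 and 13880 CPM in DMSO, where replicate 3 was far the lowest, and without that library the median was 0.27. Hsp83 had 9805, 11800 and 10500 CPM at 50 µmol/L against 7667, 7311 and 6440 CPM in DMSO (log2 fold change 0.58, SE 0.14, edgeR adjusted p 0.0251), with separate groups. The call was lost on leaving out any of 50 µmol/L replicates 2 and 3 and DMSO replicates 1 and 3. Hsp67Bc, a small heat shock protein, had 57.9, 71.4 and 49.9 CPM at 50 µmol/L and 40.4, 30.6 and 6.72 CPM in DMSO (log2 fold change 1.21, SE 0.38, edgeR adjusted p 0.0629), and DMSO replicate 3 was far the lowest. The 16 constitutive chaperones held no call, with a median of 0.16 and log2 fold changes between 0.00049 and 0.25. The unfolded protein and integrated stress response had no call among 19 genes (median -0.19).

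Glutathione S-transferases were mostly higher at 50 µmol/L. Of 27 tested, 5 (18.5%) rose and none fell, with 25 positive and a median of 0.36, or 0.16 with the length offset. With that offset only 1 of the 27 passed, as a rise. Besides GstD5 and GstE9, GstD3 had 138, 134 and 130 CPM at 50 µmol/L and 86.4, 109 and 81.4 CPM in DMSO (log2 fold change 0.54, SE 0.11, edgeR adjusted p 0.0135). GstE3 (0.52, edgeR adjusted p 0.015) and GstO3 (0.52, edgeR adjusted p 0.0291) were the others. In GstD3 the lowest treated library stood above the highest DMSO library. The number of calls was 9, 2 and 1 on omitting 50 µmol/L replicate 1, 2 or 3, and 1, 10 and 3 on omitting DMSO replicate 1, 2 or 3. Many of these genes are short, with a median exonic length of 890 bases, and near-identical neighbours can share reads.

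Among 24 other antioxidant and glutathione genes 2 rose, Prx6c and CG12896, and 1 fell (12.5% together), with a median of 0.20, or 0.13 without DMSO replicate 1. The gene that fell was cnc, the fly Nrf2 that drives antioxidant genes, at 11.3, 8.77 and 8.23 CPM at 50 µmol/L against 21.8, 14.4 and 17.2 CPM in DMSO (log2 fold change -0.91, SE 0.25, edgeR adjusted p 0.0381). It was at -0.20 with the length offset (edgeR adjusted p 0.66), and its call was lost without 50 µmol/L replicate 2 or 3 and without DMSO replicate 1 or 3. Of 24 metal transport and storage genes 2 (8.33%) rose, the zinc transporters Zip102B (0.46, edgeR adjusted p 0.0339) and ZnT63C (0.36, edgeR adjusted p 0.0436), and both also passed with the length offset. ZnT63C had 162, 164 and 148 CPM at 50 µmol/L and 132, 122 and 114.8 CPM in DMSO, without overlap. Its call was lost in each of the 6 omissions, and that of Zip102B in the same 4 as for cnc. MtnA, the main copper-responsive metallothionein, had 17.5, 25.6 and 17.0 CPM at 50 µmol/L and 20.1, 22.4 and 27.0 CPM in DMSO (log2 fold change -0.22, SE 0.23). None of 9 heme synthesis and breakdown genes passed (median 0.15), and the heme oxygenase Ho was at 0.36 (SE 0.17, edgeR adjusted p 0.193).

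The hypoxia list moved in both directions. Of 10 genes 2 rose, CG11825 and Ldh, and 1 fell, scyl (30.0% together, median -0.27). Ldh, lactate dehydrogenase, had 8.04, 13.4 and 10.6 CPM at 50 µmol/L and 4.38, 3.40 and 6.72 CPM in DMSO (log2 fold change 1.11, SE 0.30, edgeR adjusted p 0.0369), and it was also the 1 call among 12 glycolysis genes (median 0.09). scyl, a brake on TOR signalling, had 1.29, 1.22 and 1.28 CPM at 50 µmol/L against 5.04, 3.14 and 3.78 CPM in DMSO (log2 fold change -1.65, SE 0.42, edgeR adjusted p 0.0301). The scyl call was lost without 50 µmol/L replicate 2 or 3 and without DMSO replicate 1 or 3, and the Ldh call without 50 µmol/L replicate 2 or 3 and without DMSO replicate 1 or 2.

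Housekeeping gene groups, most of them short, lay slightly above 0. Of 85 cytosolic ribosomal protein genes 84 had a positive log2 fold change and 4 (4.71%) rose, RpL38, RpS29, RpS19b and RpS15Aa, with a median of 0.25 that was 0.03 with the length offset. They summed to 264900, 381000 and 294100 CPM at 50 µmol/L and 232100, 292100 and 270900 CPM in DMSO. Replicate 2 at 50 µmol/L stood above the rest, and without it the median was 0.07. The count of ribosomal protein calls was 22, 0 and 0 on omitting 50 µmol/L replicate 1, 2 or 3, and 0, 7 and 0 on omitting DMSO replicate 1, 2 or 3. Mitochondrial ribosomal protein genes had no call among 71 (median 0.27, or 0.05 with the offset). The nuclear-encoded respiratory chain had 2 rises among 65 (3.08%), ND-AGGG and ND-15 (median 0.18, or 7.06e-06 with the offset), and the proteasome 1 among 34 (2.94%), Prosalpha4 (median 0.21). Of 11 protein genes on the mitochondrial genome all were positive and 1 (9.09%) rose, mt:ND1, with 1422, 1584 and 1380 CPM at 50 µmol/L against 1025, 1014 and 756 CPM in DMSO (log2 fold change 0.65, SE 0.15, edgeR adjusted p 0.0213). Their median was 0.45, or 0.28 with the offset. It was 0.19 without 50 µmol/L replicate 2, 0.27 without DMSO replicate 3 and 0.71 without DMSO replicate 1. Of 29 nucleolar genes of ribosome biogenesis 3 (10.3%) rose, the RNA polymerase I subunit Polr1E (0.56, edgeR adjusted p 0.0164), the snoRNP protein NHP2 (0.44, edgeR adjusted p 0.0374) and nclb (0.37, edgeR adjusted p 0.0405), with a median of 0.14. The calls of mt:ND1, ND-AGGG, ND-15, Prosalpha4, NHP2 and nclb were lost without 50 µmol/L replicate 2 or 3 and without DMSO replicate 1 or 3, and that of Polr1E in these omissions except DMSO replicate 3.

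Noncoding RNAs were a mixed group in these poly(A) libraries. Of 83 long noncoding RNAs 4 rose, lncRNA:roX2, lncRNA:Hsromega, lncRNA:CR43651 and lncRNA:CR45820, and 1 fell (6.02% together), with a median of 0.22. The one that fell, lncRNA:CR42862, had 104, 73.6 and 61.6 CPM at 50 µmol/L and 267, 121 and 241 CPM in DMSO (log2 fold change -1.39, SE 0.25, edgeR adjusted p 0.00675), and the groups were separate. Its call was lost without 50 µmol/L replicate 3. Uhg8 was the 1 call among 7 snoRNA host genes (median 0.38) and snoRNA:185 the 1 call among 12 tested snoRNAs (median 0.05). In the dosage compensation complex roX2 was the only call among 6 (median -0.10). msl-2, the male-specific protein subunit, had 24.4, 19.2 and 17.6 CPM at 50 µmol/L against 27.9, 21.7 and 27.1 CPM in DMSO (log2 fold change -0.32, SE 0.18, edgeR adjusted p 0.259).

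Among chromatin regulators the falls were the most numerous of the 38 lists. Of 36 Polycomb, trithorax and remodelling genes 13 (36.1%) fell and none rose, with a median of -0.60, or -0.25 with the length offset. They were kis, skd, Set2, ash1, trx, Ncoa6, nej, Kdm5, dom, tna, osa, Nipped-B and jing. trx, the histone methyltransferase that gives the trithorax group its name, had 4.66, 3.17 and 3.29 CPM at 50 µmol/L and 19.1, 9.03 and 10.6 CPM in DMSO (log2 fold change -1.78, SE 0.37, edgeR adjusted p 0.0145). skd, a Mediator subunit, had 6.59, 3.65 and 4.21 CPM at 50 µmol/L against 28.1, 17.0 and 18.9 CPM in DMSO (log2 fold change -2.12, SE 0.39, edgeR adjusted p 0.00764). nej, the CBP acetyltransferase, had 32.0, 18.0 and 26.5 CPM at 50 µmol/L and 84.5, 54.7 and 47.1 CPM in DMSO (log2 fold change -1.27, SE 0.27, edgeR adjusted p 0.0164). None of these overlapped between groups. The number of calls in this list was 21, 2 and 1 on omitting 50 µmol/L replicate 1, 2 or 3, and 3, 17 and 10 on omitting DMSO replicate 1, 2 or 3, and none of the 36 passed with the length offset.

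Regulators of mRNA stability had the lowest median of all lists, -1.10, or -0.51 with the offset. Of 14 tested, 8 (57.1%) fell and none rose, namely Not1, AGO1, shep, Tis11, AGO2, mbl, pum and Fmr1. Not1, the scaffold of the CCR4-NOT deadenylase, had 44.6, 22.2 and 31.3 CPM at 50 µmol/L and 118, 73.5 and 84.8 CPM in DMSO (log2 fold change -1.48, SE 0.24, edgeR adjusted p 0.00491). It was the only 1 of the 14 to pass with the offset (-0.69, edgeR adjusted p 0.0285). AGO1, the Argonaute of the microRNA pathway, had 5.47, 2.44 and 3.11 CPM at 50 µmol/L against 24.1, 11.8 and 15.0 CPM in DMSO (log2 fold change -2.17, SE 0.45, edgeR adjusted p 0.0143). AGO2, the Argonaute of RNA interference, fell by less, with 577, 487 and 476 CPM at 50 µmol/L and 765, 670 and 711 CPM in DMSO (log2 fold change -0.48, SE 0.11, edgeR adjusted p 0.0228). Calls in this list numbered 10, 1 and 1 on omitting 50 µmol/L replicate 1, 2 or 3, and 1, 10 and 6 on omitting DMSO replicate 1, 2 or 3.

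Several signalling lists also held falls. In the ecdysone response, the steroid hormone pathway of molting, 4 of 11 genes (36.4%) fell, the receptor EcR, its coactivator tai and the early genes Eip75B and br (median -1.07, or -0.40 with the offset). Eip75B had 7.08, 6.33 and 4.94 CPM at 50 µmol/L and 26.2, 12.2 and 13.2 CPM in DMSO (log2 fold change -1.49, SE 0.36, edgeR adjusted p 0.0248). EcR had 3.86, 1.71 and 0.732 CPM at 50 µmol/L against 8.55, 5.10 and 6.41 CPM in DMSO (log2 fold change -1.62, SE 0.46, edgeR adjusted p 0.0424). In the Hippo pathway, which restrains growth, 5 of 12 (41.7%) fell, the upstream genes ex and kibra, the kinase wts and the transcription partners sd and Tgi (median -0.42, or -0.32 with the offset). ex had 13.7, 8.53 and 10.98 CPM at 50 µmol/L and 54.4, 30.1 and 35.5 CPM in DMSO (log2 fold change -1.84, SE 0.29, edgeR adjusted p 0.00432). In insulin and TOR signalling 4 of 18 (22.2%) fell, Pi3K92E, S6k, gig and REPTOR (median -0.61, or -0.15 with the offset), of which gig, at -0.39, was at 0.07 with the offset. On omitting 50 µmol/L replicate 1, 2 or 3 the calls numbered 7, 0 and 0 in the ecdysone list, 6, 1 and 1 in the Hippo list and 5, 1 and 0 in the insulin list. On omitting DMSO replicate 1, 2 or 3 they numbered 0, 5 and 2, then 1, 6 and 4, then 0, 5 and 2. The 5 ecdysone calls without DMSO replicate 2 were 4 falls and 1 rise. With all libraries, 2 of the 11 ecdysone genes had a positive log2 fold change, of at most 0.31, and 9 a negative one. The ecdysone median was -0.67 without 50 µmol/L replicate 2, and the Hippo median -0.23 without 50 µmol/L replicate 3.

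The lists of large cytoskeletal and matrix genes held many falls as fitted and had medians near or above 0 once length was modelled. Of 19 linkers and motors 7 (36.8%) fell, shot, kst, Abl, ck, Dhc64C, pyd and Msp300, and all 19 were negative. Their median was -0.59, or 0.14 with the offset and -0.91 without 50 µmol/L replicate 1, and their median exonic length 11083 bases. kst, the heavy beta-spectrin, had 212, 140 and 197 CPM at 50 µmol/L and 474, 297 and 366 CPM in DMSO (log2 fold change -1.05, SE 0.18, edgeR adjusted p 0.0062), but was at -0.08 with the offset. Of 12 basement membrane and matrix genes 6 (50.0%) fell, trol, LanA, LanB2, vkg, LanB1 and Col4a1 (median -0.58, or 0.01 with the offset and -0.38 without 50 µmol/L replicate 2). LanA, a laminin subunit, had 559, 358 and 475 CPM at 50 µmol/L against 909, 610 and 785 CPM in DMSO (log2 fold change -0.73, SE 0.17, edgeR adjusted p 0.0196), and was at 0.12 with the offset. Of 14 genes for tubulins and their folding, most of them shorter, 2 rose, Tbcb and nudC, and 1 fell, nudE (median 0.21), with 0 calls without 50 µmol/L replicate 2 or 3 and without DMSO replicate 1 or 3. Calls numbered 11, 2 and 2 among the linkers and 7, 0 and 1 among the matrix genes on omitting 50 µmol/L replicate 1, 2 or 3. They numbered 2, 11 and 3 and then 0, 7 and 1 on omitting DMSO replicate 1, 2 or 3.

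Hemocyte identity genes went with the matrix genes. Col4a1, vkg and Pxn are on both lists, so the falls of vkg and Col4a1 count in each. Of 11 tested hemocyte markers 6 (54.5%) fell, ush, Hml, vkg, srp, drpr and Col4a1, and none rose (median -0.55, or -0.06 with the offset). srp, the GATA factor of hemocyte fate, had 44.9, 26.3 and 24.0 CPM at 50 µmol/L against 92.8, 55.3 and 59.96 CPM in DMSO (log2 fold change -1.12, SE 0.29, edgeR adjusted p 0.033). Hml, hemolectin, had 325, 172 and 316 CPM at 50 µmol/L and 473, 413 and 451 CPM in DMSO (log2 fold change -0.72, SE 0.18, edgeR adjusted p 0.0254), but was at 0.09 with the offset. Of the 11 markers 10 had a negative log2 fold change and 1 a positive one, at 0.87. The count of markers called was 7, 0 and 0 on omitting 50 µmol/L replicate 1, 2 or 3. It was 0, 6 and 1 on omitting DMSO replicate 1, 2 or 3. The 7 without 50 µmol/L replicate 1 were 6 falls and 1 rise. Of 4 epithelial markers crb and cora fell, both calls being lost without 50 µmol/L replicate 2 or 3 or DMSO replicate 1, and the list summed to 263 to 402 CPM at 50 µmol/L and 456 to 701 CPM in DMSO. No marker passed in the crystal cell and lamellocyte list (2 tested, summing to 19.6 to 22.9 CPM at 50 µmol/L and 20.3 to 21.5 CPM in DMSO) or the muscle list (3 tested, 43.9 to 67.2 CPM at 50 µmol/L and 62.4 to 87.8 CPM in DMSO). None passed in the germline list (2 tested, 270.0 to 299.5 CPM at 50 µmol/L and 283 to 302 CPM in DMSO) or the ovarian somatic list (3 tested, 102 to 139 CPM at 50 µmol/L and 122 to 140.4 CPM in DMSO).

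The remaining lists held 4 calls in all. In the JNK pathway hep, the JNK kinase, fell (-1.19, edgeR adjusted p 0.0179) among 10 genes (10.0%, median -0.25). In the V-ATPase and autophagy list Vha16-1 and Atg17 fell among 38 (5.26%, median -0.01), and in purine synthesis Prps fell (-1.75, edgeR adjusted p 0.0285) among 9 (11.1%, median 0.04). Prps makes the activated ribose from which purines are built. These 4 calls were lost without 50 µmol/L replicate 2 or 3 or DMSO replicate 1, and those of Atg17 and Prps also without DMSO replicate 3. Fatty acid synthesis and SREBP had no call among 13 (median -0.04). The Imd immune pathway and antimicrobial peptides had none among 24 (median -0.26).

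**Figure D4:**
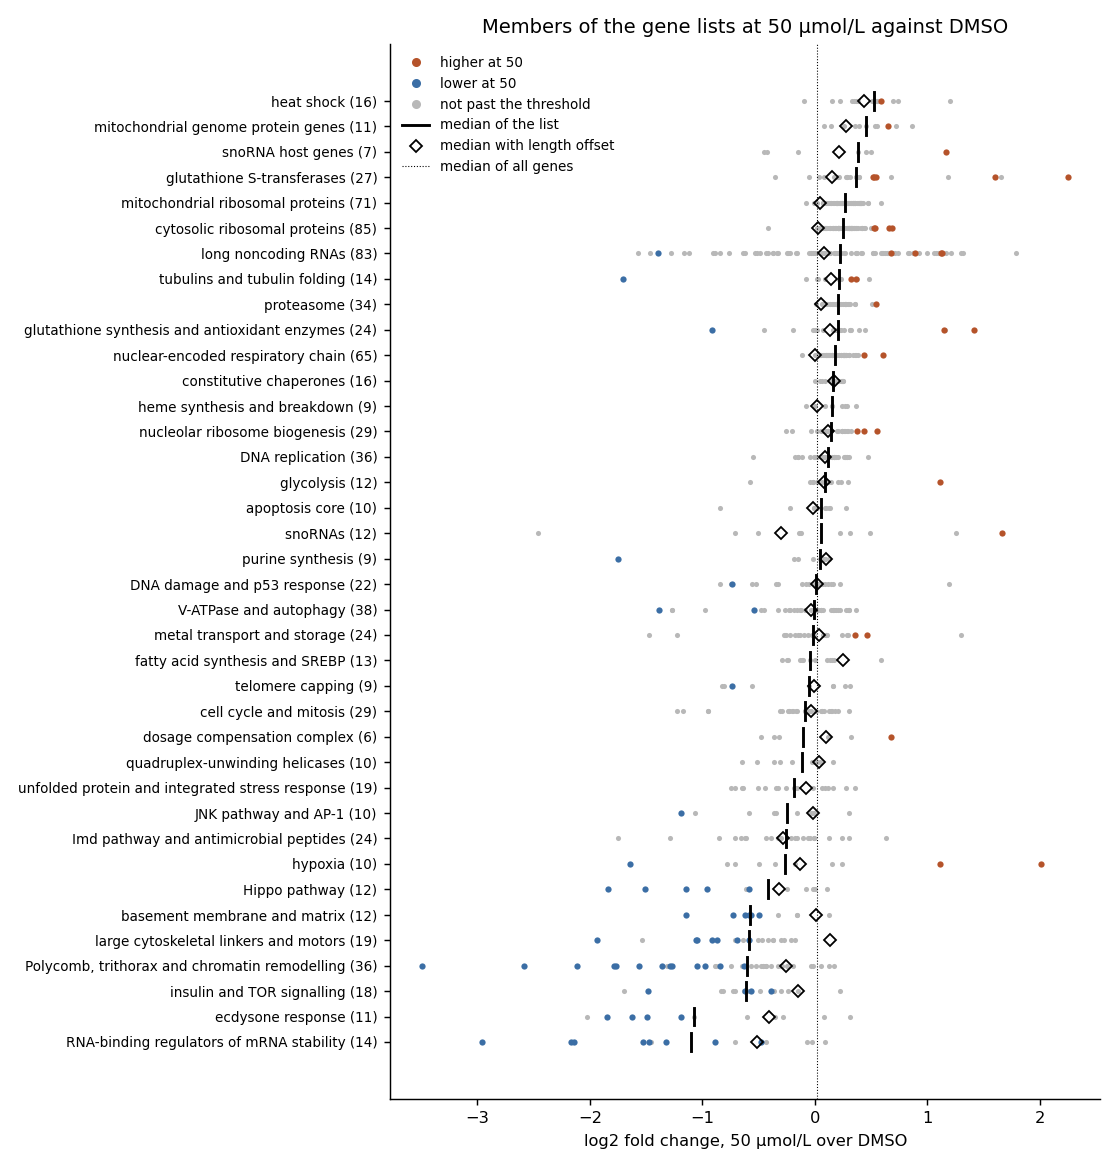
Log2 fold change at 50 µmol/L over DMSO of each tested member of 38 gene lists (number tested in parentheses), with the list median as fitted (bar) and with the length offset (diamond) and the median of all genes (dotted line). Cytoskeletal and matrix lists sit at -0.59 and -0.58 as fitted and at 0.14 and 0.01 with the offset, while the mRNA stability list sits at -1.10 and -0.51.

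Direct comparisons with the neighbouring concentrations asked where 50 µmol/L differed from them. There were 22 genes (0.3%) that differed from 25 µmol/L, of which 14 (0.191%) were higher and 8 (0.109%) lower. With the run of title numbers as a block, 1 gene was left, on the lower side, and 0 of the higher genes. The 14 higher were mainly heat shock genes, with Hsp67Bc, Hsp70Ba, Hsp70Bbb, Hsp70Bb, Hsp70Bc, Hsp70Ab, Hsp68, Hsp27, Hsp26, Hsp23, DnaJ-1, the co-chaperone stv, AsnS and lncRNA:alphagamma-element:CR32865. Hsp67Bc had 57.9, 71.4 and 49.9 CPM at 50 µmol/L and 5.28, 3.68 and 4.01 CPM at 25 µmol/L, a log2 difference of 3.78 (SE 0.46, edgeR adjusted p 0.00059). Hsp70Bb had 1302, 1288 and 1317 CPM at 50 µmol/L and 426, 221 and 187 CPM at 25 µmol/L (log2 difference 2.23, SE 0.28, edgeR adjusted p 0.000656). The groups were far apart in both, though reads of the Hsp70 copies can be shared between them. AsnS, asparagine synthetase, had 467, 652 and 510 CPM at 50 µmol/L and 272, 227 and 231 CPM at 25 µmol/L (log2 difference 1.16, SE 0.15, edgeR adjusted p 0.000656).

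Of the 22 genes, 4 had also passed at 50 µmol/L against DMSO, AsnS as a rise (0.52, edgeR adjusted p 0.0400) and the genes Ets21C, IP3K1 and Sox14 as falls. All concentrations are set against the same 3 DMSO libraries, so their fold changes over DMSO are not independent. For CG11825 they were 2.30 at 25 (edgeR adjusted p 0.000356), 2.01 at 50 (0.00334) and 1.78 at 100 µmol/L (0.00277). For shot they were -1.79 at 25 (edgeR adjusted p 0.00318), -1.94 at 50 (0.00334) and -2.08 at 100 µmol/L (0.00105). These changes were thus present at all 3 concentrations. For Hsp67Bc they were -2.57 at 25 (edgeR adjusted p 0.012), 1.21 at 50 (0.0629) and 0.18 at 100 µmol/L (0.84). For Hsp70Bb they were -1.49 at 25 (edgeR adjusted p 0.016), 0.74 at 50 (0.0985) and -0.06 at 100 µmol/L (0.93). DMSO libraries themselves spread widely in Hsp67Bc and Hsp70Bb, with 1061, 796 and 484 CPM of Hsp70Bb in replicates 1, 2 and 3.

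The 8 genes lower at 50 than at 25 µmol/L were pirk, Ets21C, IP3K1, Rel, Gadd45, Sox14, CG1146 and CG13482. pirk, a brake on the Imd immune receptor, had 8.85, 8.53 and 9.70 CPM at 50 µmol/L against 54.6, 85.4 and 91.5 CPM at 25 µmol/L (log2 difference -3.09, SE 0.26, edgeR adjusted p 1.22e-05). Rel, the NF-kappaB factor of the same pathway, had 254, 180 and 194 CPM at 50 µmol/L and 321, 444 and 439 CPM at 25 µmol/L (log2 difference -0.94, SE 0.16, edgeR adjusted p 0.0109). Both were without overlap. Over DMSO, pirk was at 2.38 at 25 (edgeR adjusted p 0.000144), -0.71 at 50 (0.114) and 0.94 at 100 µmol/L (0.034). Of the 22 genes, the 10 with the smallest p kept their call in each of 6 omissions. The whole count was 64, 10 and 16 on omitting 50 µmol/L replicate 1, 2 or 3, and 37, 10 and 10 on omitting 25 µmol/L replicate 1, 2 or 3.

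From 100 µmol/L only 3 genes (0.0409%) differed by edgeR, with 1 (0.0136%) higher and 2 (0.0273%) lower at the lesser concentration. foi, a zinc importer of the ZIP family, had 75.1, 76.0 and 55.4 CPM at 50 µmol/L and 195, 258 and 319 CPM at 100 µmol/L (log2 difference -1.90, SE 0.17, edgeR adjusted p 2.85e-05). Its DMSO level was 64.4, 45.1 and 59.6 CPM. MsrA, which repairs oxidised methionine, had 163, 151 and 139 CPM at 50 µmol/L against 95.4, 100.3 and 94.9 CPM at 100 µmol/L (log2 difference 0.64, SE 0.10, edgeR adjusted p 0.026). pirk was the other, at -1.65 (SE 0.27, edgeR adjusted p 0.026). The call of foi held in each of 6 omissions, that of MsrA in 2 and that of pirk in 1. The count was 1, 5 and 2 on omitting 50 µmol/L replicate 1, 2 or 3, and 3, 2 and 1 on omitting 100 µmol/L replicate 1, 2 or 3. A count of 3 does not show that the 50 and 100 µmol/L groups act alike, and DESeq2 called 9.

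**Figure D5:**
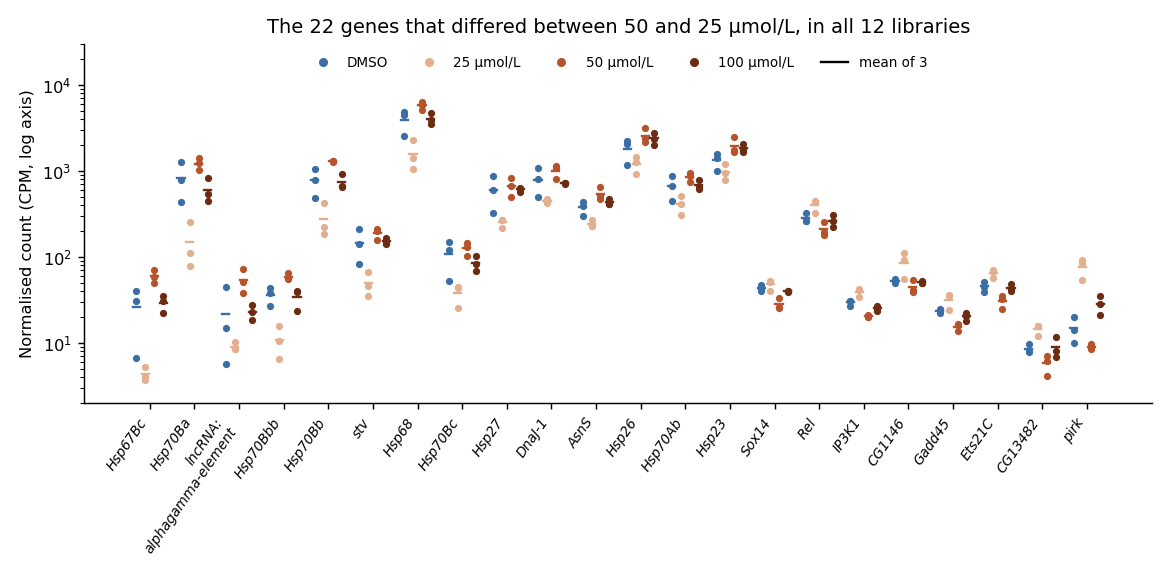
Normalised counts (CPM, log axis) in all 12 libraries of the 22 genes that differed between 50 and 25 µmol/L TMPyP4, with points for libraries and a line for the mean of 3, ordered from DMSO through 25 and 50 to 100 µmol/L. The 14 genes on the left are higher at 50 than at 25 µmol/L, and the 8 on the right are lower; Hsp67Bc is at 49.9 to 71.4 CPM at 50 and 3.68 to 5.28 CPM at 25 µmol/L.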

How the data were processed

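Whole-number read counts per gene, deposited by the authors as a table with 1 column per library, were analysed as given. Per the submitters' processing notes, FastQC 0.11.8, MultiQC 0.9, HISAT2 2.0.5, SAMtools 1.7 and HTSeq 0.9.1 were used with genome build dm6. Per the labels' protocols, libraries were poly(A)-selected and stranded (dUTP). The annotation and strand setting used in counting are not given in the sources used here, so counts of antisense, overlapping and near-identical genes are uncertain. Reads not assigned to a single gene (no feature, 0.783 to 1.04%; ambiguous, 1.87 to 2.71%) were left out of library sizes and tests. No sequence table was used here. Names, positions and exonic lengths came from Ensembl's BDGP6 annotation, whose coordinates are those of dm6, and 17358 of 17494 identifiers matched.

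Low genes were removed by filterByExpr (at least 10 counts, 15 in total). TMM normalisation and the quasi-likelihood test (glmQLFit and glmQLFTest) were those of edgeR 4.0.16 in R 4.3.3. All 12 libraries entered 1 fit with group as the only term. All p-values were two-sided and adjusted by the Benjamini-Hochberg method over 7328 genes. SE was taken as the size of the log2 fold change over the root of its F value. The common biological coefficient of variation was 0.141 and the median SE 0.163. The length offset is a lowess fit (span 0.5) of each library's log2 CPM deviation on log2 exonic length. The procedure was tested on simulated counts.

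Genes were named by rule: the 12 largest rises and falls and the 4 smallest p each way among called genes whose groups do not overlap and whose average log2 CPM reaches 1, up to 4 members with the smallest p and the most abundant member of each list, and the 5 smallest p of the direct comparisons and of the offset fit each way. Exceptions are named as picked later, called members of a list are named in full, and p53, MtnA and msl-2 were added for their roles after values were seen. Members, lists and alternatives were chosen with earlier results of these data known. Alternatives were DESeq2 1.42.0, its size factors, no low-count filter, the 6 libraries alone, blocks, the length offset and omission of each library.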

Additional observations from a re-analysis of the deposited data

Results flagged for a closer look

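For 5 genes the change at 50 µmol/L over DMSO differed from that at 25 µmol/L by the direct test, the 5 smallest p of that comparison (edgeR). The log2 difference, 50 minus 25 µmol/L, was -3.09 for pirk, 3.78 for Hsp67Bc, 2.43 for Hsp70Bbb, 2.23 for Hsp70Bb and 1.16 for AsnS. The 3 libraries at 50 µmol/L lay on 1 side of the 3 at 25 µmol/L in each gene. For 3 genes the change at 50 µmol/L differed from that at 100 µmol/L, by a log2 difference, 50 minus 100 µmol/L, of -1.90 for foi, 0.64 for MsrA and -1.65 for pirk. In pirk the 3 libraries at 50 µmol/L were also below all DMSO libraries, with 8.53 to 9.70 CPM at 50 µmol/L and 10.1 to 20.1 CPM in DMSO, though that difference did not pass the threshold (edgeR adjusted p 0.114).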

How the results depend on the processing

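The count of genes changed at 50 µmol/L against DMSO was 502. It was 756 with DESeq2, 1058 with no filter on low counts, 218 with the 6 libraries alone, 88 with the length offset, 51 with the replicate block and length offset together, 0 with the title number block (1141 at an unadjusted p under 0.05), and 50 to 1233 with a library left out. DESeq2 size factors gave 504 and the replicate block 635. Replicate numbers were not treated as pairs, since deviations of same-numbered libraries correlated at 0.442, 0.180 and 0.0895 and not every library correlated best with its own number. The count of genes that differed between 50 and 25 µmol/L was 22, and 43 with DESeq2, 207 with no filter, 1 with the title number block and 10 to 64 with a library left out. Between 50 and 100 µmol/L it was 3, and 9 with DESeq2, 35 with no filter, 1 with the title number block and 1 to 5 with a library left out. With the length offset, and with the replicate block and length offset together, the sign turned for Hml (0.0937 and 0.0774), LanA (0.12 and 0.11), gig (0.0723 and 0.0748), trol (0.0120 and 0.0016), lola (1.00 and 1.01) and trio (0.81 and 0.81); the offset's construction removes the trend on length, and lola and trio, at -0.23 and -0.02, were not called without it. The slope difference stayed negative, from -0.322 to -0.175, under all alternatives run. Depth limits genes below about 1 CPM, where a library holds few counts, and the run of title numbers cannot be told apart from library order or handling.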
